A study of Mus musculus with 12 samples.

Results

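The gene families that carry amino acids and related compounds across membranes were described in the mouse melanoma line #781, grown as tumors and grown in culture. The members were all genes whose symbol starts with Slc1a, Slc3a, Slc6a, Slc7a, Slc36a, Slc38a or Slc43a followed by a digit, without the cystine carrier Slc7a11. This gave 32 of the 17285 genes in each of the 2 deposited tables, while the GENCODE M21 annotation names 66 such genes, and the others were not analysed here. The symbol rule also takes in genes that move other cargo. Slc6a4 is the serotonin transporter, Slc6a6 the taurine transporter, Slc6a8 the creatine transporter and Slc43a3 a carrier of purine nucleobases, and Slc7a6os, a neighbor of Slc7a6, is not a carrier of the solute carrier families.

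The series holds 12 samples of poly(A) RNA, in 4 groups of 3. They are cultured #781 cells with wildtype Nfe2l2, cultured #781 cells with Nfe2l2 knockout, tumors of wildtype #781 cells and tumors of knockout #781 cells. The cells came from a melanoma of a mouse in which a Cre recombinase driven by the tyrosinase promoter (Tyr-CreERT2) switches on mutant BRAF, so both genotypes share the engineered background of that mouse and the C57BL/6 strain. Nfe2l2 encodes NRF2, the main transcription factor of the oxidative stress response, and was cut with a pair of guide RNAs. The tumors grew under the skin of young, immunocompetent C57BL/6 mice of both sexes from 1 set of control and knockout cells.

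Each deposited table gives 1 mean level per gene, as log2 CPM, the read count scaled to the size of the library, taken here as the mean over the 6 samples of that table with knockout and control together. Knockout was therefore not compared with control, and the loss of Nfe2l2 could not be checked in single samples. The depth of the libraries is unknown, no standard deviation can be given, and no difference below carries a test. The comparison that remains is that of whole tumors with cultured cells. Both tables were scaled to their own totals, and the median difference over the 12676 genes with a mean log2 CPM above 1 in both was −0.03. The lowest value was −1.05 in the culture table, shared by 523 genes, and −1.01 in the tumor table, shared by 8 genes. It was read as the level of a gene without reads. Both tables hold the same genes, so a gene without reads in culture may have been kept for its reads in tumors. How genes were filtered is unknown. Such genes can raise the counts of genes detected or higher in tumors, among members and among all genes.

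Amino acid carriers differ in cargo, in the ion that drives them and in the membrane that holds them. Carriers of the SLC1, SLC6 and SLC38 families use the sodium gradient and can concentrate their cargo, while some SLC36 proteins use protons. Several SLC7 proteins are light chains that need a heavy chain of the SLC3 family to reach the surface. They then exchange an amino acid inside the cell for another outside. Growing cells draw glutamine, leucine, arginine and serine through such carriers, and lysosomal members report amino acid supply to the growth kinase mTORC1. When amino acids run short, the transcription factor ATF4 raises many of these genes together with enzymes of serine and asparagine synthesis, and NRF2 is known to act with ATF4 on some of them.

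The transporters with the highest levels were abundant in both settings, and most of them stood lower in tumors. A second set, barely detected in culture, was present in tumors. The promoter stretches of 6 members are shown here, 3 from each set, because they let a reader see the upstream sequence of genes of both sets. Each runs 5′ to 3′ in the direction of the gene and ends at the base before the RefSeq start farthest upstream (RefSeq, GRCm38.p6). Capitals mark a match, on either strand, to the NRF2 element core TGACNNNGC or the ATF4 element core TGATGNAA.

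Slc3a2, abundant in culture, chr19:8713898-8714047, minus strand: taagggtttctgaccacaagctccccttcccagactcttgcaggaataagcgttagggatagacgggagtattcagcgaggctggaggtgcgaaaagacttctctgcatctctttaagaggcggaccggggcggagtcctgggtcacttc
Slc38a2, abundant in culture, chr15:96699729-96699878, minus strand: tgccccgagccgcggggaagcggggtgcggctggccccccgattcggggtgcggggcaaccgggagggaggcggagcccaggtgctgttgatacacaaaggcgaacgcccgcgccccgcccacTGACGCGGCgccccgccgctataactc
Slc7a1, abundant in culture, chr5:148399905-148400054, minus strand: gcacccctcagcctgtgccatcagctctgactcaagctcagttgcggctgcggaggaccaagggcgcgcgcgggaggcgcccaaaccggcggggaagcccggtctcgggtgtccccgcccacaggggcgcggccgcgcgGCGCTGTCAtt
Slc43a2, barely detected in culture, chr11:75531544-75531693, plus strand: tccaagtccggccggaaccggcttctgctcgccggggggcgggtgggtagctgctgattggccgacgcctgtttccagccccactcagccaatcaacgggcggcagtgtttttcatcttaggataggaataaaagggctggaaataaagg
Slc7a7, barely detected in culture, chr14:54417945-54418094, minus strand: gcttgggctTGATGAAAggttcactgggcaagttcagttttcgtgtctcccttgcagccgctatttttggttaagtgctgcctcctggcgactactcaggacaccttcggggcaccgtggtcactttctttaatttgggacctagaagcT
Slc7a8, at the lowest level in culture, chr14:54781887-54782036, minus strand: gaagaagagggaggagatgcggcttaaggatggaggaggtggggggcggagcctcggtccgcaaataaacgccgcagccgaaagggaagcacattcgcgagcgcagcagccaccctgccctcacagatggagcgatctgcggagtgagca

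A RefSeq promoter of 250 bases before to 50 after the start was given for 25 of the 32 members. The NRF2 element core was found in 5 of them, Slc36a1, Slc38a2, Slc43a1, Slc7a1 and Slc7a6, and in 12.4% of 27025 promoters of all genes. The ATF4 element core was found in 2, Slc1a4 and Slc7a7, and in 4.06% of all promoters. The matches of Slc1a4 and Slc7a6 and the last one of Slc7a7 run across the start site. The starts used for Slc3a2, Slc7a8 and, by a few bases only, Slc38a2 lie within the longer gene models of GENCODE. The printed stretch of Slc3a2 therefore lies inside its annotated gene, and those of Slc7a8 and Slc38a2 lie inside in part. Such matches are a description of letters and not of binding. The G and C content of the promoter could be matched for 7 members above a mean log2 CPM of 5 in culture. Their median was 65.0%, from 50.3% to 75.7%. The median over all 27025 promoters, of genes at any level, was 52.7%. No median was taken for other genes above 5, so the gap is not shown to be particular to these members. In the 3 matched members that were below 1 in culture and above 2 in tumors, the content was 51.0% to 63.7%, so the ranges overlapped.

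**Figure D1:**
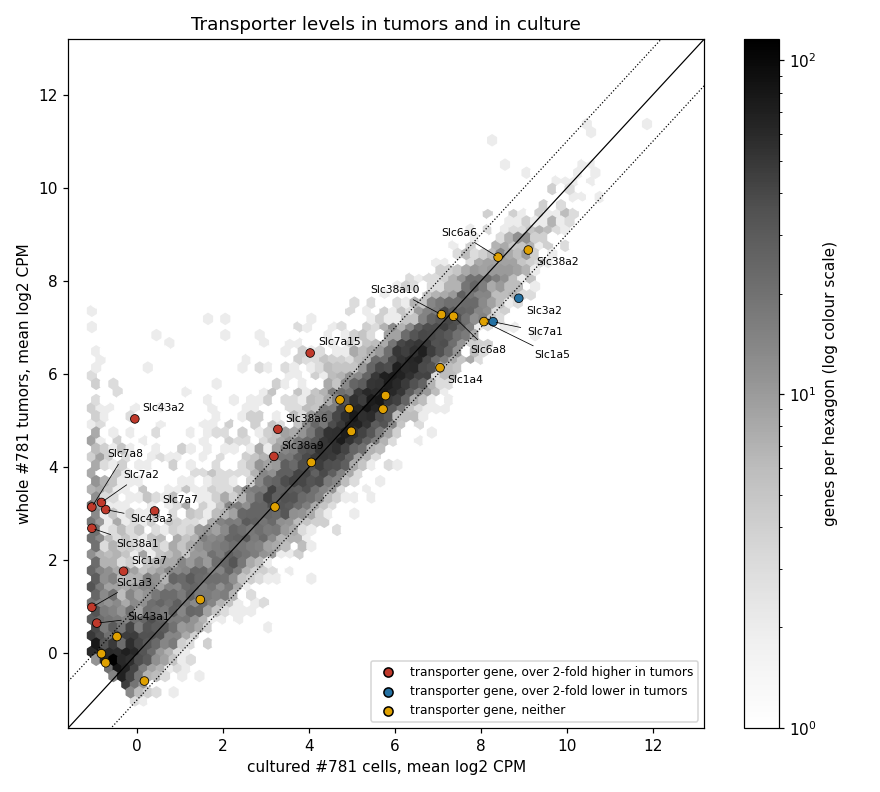
Mean log2 CPM of each gene in the tumor table against that in the culture table. Grey hexagons hold all 17285 genes, points are the 32 transporter genes, the solid line marks equal levels and the dotted lines a difference of 1 on the log2 scale. The 12 red points lie above the upper dotted line, the 2 blue points lie below the lower one, and the most abundant transporter genes sit close to or below the solid line.

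A mean log2 CPM above 0 was reached by 21 of the 32 members in culture (65.6%, against 83.7% of all genes) and by 29 in tumors (90.6%, against 93.4% of all genes). Of the 30 members above 0 in at least 1 table, 12 were more than 2-fold higher in tumors than in culture (40.0%), where 17.3% of all 16424 such genes were. They were Slc1a3, Slc1a7, Slc7a2, Slc7a7, Slc7a8, Slc7a15, Slc38a1, Slc38a6, Slc38a9, Slc43a1, Slc43a2 and Slc43a3. Only Slc3a2 and Slc7a1 were more than 2-fold lower (6.67%), where 4.16% of all genes were. By a difference of over 10 percentile points instead, 2 members were lower as well, Slc1a4 and Slc38a4, where 12.8% of all genes were, so the order of the shares of members and of all genes turned. Among 201 other genes named Slc that passed the same minimum, 15.9% were more than 2-fold higher and 2.49% more than 2-fold lower. The median difference, tumor minus culture, was 0.26 for the members and 0.10 for all genes. These are differences between single mean values, and their error is unknown. Genes kept only for their reads in tumors would raise the counts on the tumor side. In culture 8 members lay within 0.5 of the lowest level, namely Slc1a3, Slc38a1 and Slc7a8 at that level and Slc7a2, Slc43a1, Slc43a3, Slc6a4 and Slc6a20b just above it, and their differences depend on how the authors treated counts near 0.

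The 2 heavy chains stood far apart. Slc3a2 encodes the 4F2 heavy chain (CD98), the partner of the large neutral and cationic light chains, and lies on chromosome 19 from 8706882 to 8723369 of GRCm38. Its mean log2 CPM was 8.88 in culture and 7.63 in tumors, 2.38-fold higher in culture. It went from the 98.4th to the 94.5th percentile of all genes, so it remained among the abundant ones. Slc3a1 encodes the rBAT heavy chain of the kidney and gut cystine carrier and had 3.21 in culture and 3.14 in tumors. A share of 26.5% of the exon length of Slc3a1 overlaps Prepl on the opposite strand, and whether reads were counted by strand is not given in the sources used here. Divided by exon length, Slc3a2 had the highest level of all members in both tables, at 7.06 in culture and 5.81 in tumors on the log2 scale of CPM per kilobase.

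Among the light chains, the abundant one stood at a like level in both settings and the scarce ones were found in tumors. Slc7a6, the y+LAT2 chain that trades cationic against neutral amino acids, had a mean log2 CPM of 5.78 in culture and 5.54 in tumors. Slc7a8, the LAT2 chain that exchanges neutral amino acids, was at the lowest level of the culture table and at 3.14 in tumors, and no fold can be given against that level. Slc7a7, the y+LAT1 chain known from macrophages and the gut, had 0.41 in culture and 3.06 in tumors, 6.28-fold higher. Slc7a7 and Slc7a8 are neighbors on chromosome 14, 304 kb apart, and 7.0% of the exon length of Slc7a7 overlaps Oxa1l on the opposite strand. Slc7a15, a further member of this family, was higher in tumors from a well detected level, at 4.03 in culture and 6.45 in tumors, 5.37-fold higher. Per kilobase of exon, Slc7a15 ranked among the 12 highest members in both tables, at 2.45 in culture and 4.87 in tumors on the log2 scale. Slc7a5, which encodes the LAT1 chain, was not analysed here.

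The cationic amino acid carriers gave 1 gene of each pattern. Slc7a1 encodes CAT1, the widely expressed arginine and lysine carrier, and lies on chromosome 5 from 148327410 to 148399904. Its mean log2 CPM was 8.29 in culture and 7.12 in tumors, 2.24-fold higher in culture. Slc7a2 encodes CAT2, which brings arginine into activated macrophages, and had −0.83 in culture and 3.24 in tumors, 16.8-fold higher. That culture level was within 0.5 of the lowest, so the fold depends on how counts near 0 were treated. Slc7a3, the CAT3 carrier best known from brain, was scarce in both, at 1.47 and 1.16. Per kilobase of exon, Slc7a1 had 3.60, Slc7a2 0.05 and Slc7a3 −0.76 in tumors on the log2 scale.

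The neutral exchangers of the SLC1 family were abundant and lower in tumors, just short of 2-fold. Slc1a5 encodes ASCT2, a main route of glutamine into growing cells, and had a mean log2 CPM of 8.07 in culture and 7.13 in tumors, 1.92-fold higher in culture. Slc1a4 encodes ASCT1, which exchanges serine, alanine and cysteine, and had 7.05 and 6.14, 1.88-fold higher in culture. The acidic carriers of the same family were scarcer. Slc1a1, the glutamate and cysteine carrier EAAT3, had 4.05 and 4.10, and 31.9% of its exon length overlaps 4430402I18Rik on the opposite strand. Slc1a3, the glial glutamate carrier, was at the lowest level in culture and at 0.99 in tumors, and Slc1a7 had −0.31 and 1.77.

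**Figure D2:**
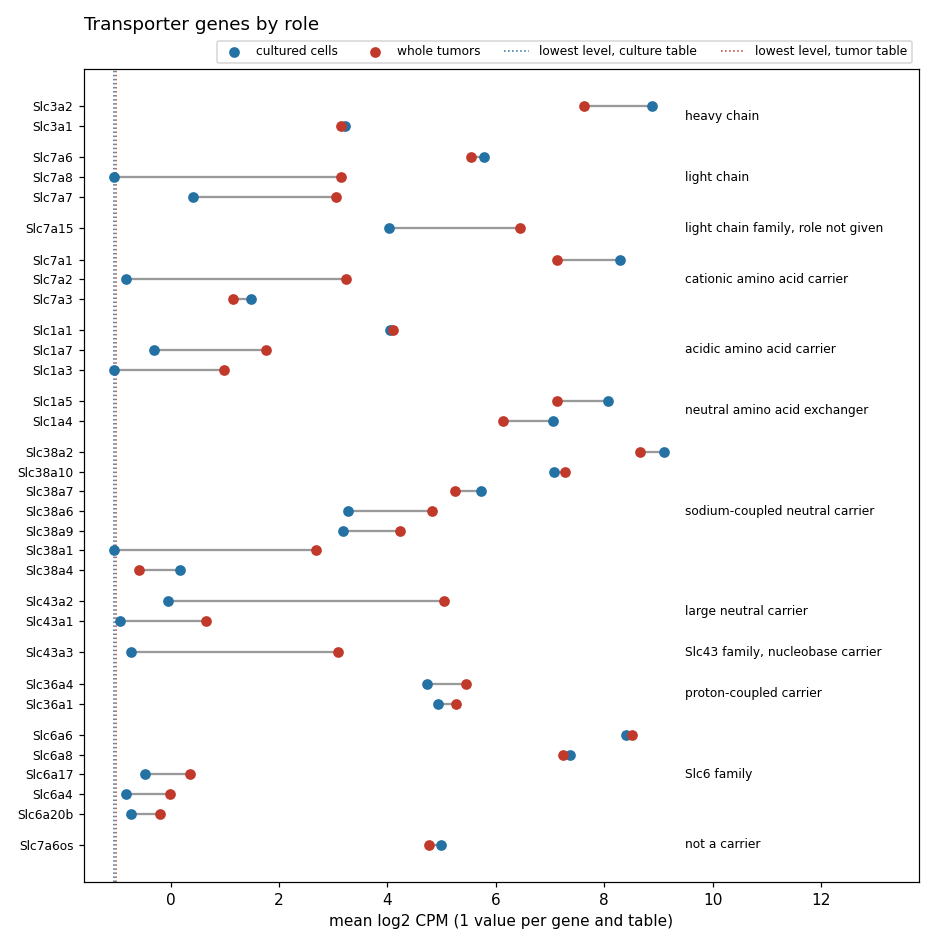
Mean log2 CPM of the 32 transporter genes in culture (blue) and in tumors (red), 1 value per gene and table, grouped by role, with dotted lines at the lowest level of each table. Slc36a4 is grouped with Slc36a1 by family name. The longest lines belong to genes with a mean log2 CPM below 0 in culture, such as Slc43a2 with −0.05 in culture and 5.04 in tumors, while abundant genes such as Slc38a2 have short lines.

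The SLC38 family held the gene with the highest mean log2 CPM of the members and also a gene at the lowest level in culture. Slc38a2 encodes SNAT2, the system A carrier that cells raise when amino acids are short, and lies on chromosome 15 from 96687392 to 96699730. Its mean log2 CPM was the highest in both tables, 9.10 in culture and 8.66 in tumors. Its neighbors 44.5 kb and 295 kb away on the same chromosome, Slc38a1 (SNAT1) and Slc38a4 (SNAT4), also move small neutral amino acids with sodium and had a different pattern. Slc38a1 was at the lowest level of the culture table and at 2.69 in tumors. Slc38a4 had 0.17 in culture and −0.59 in tumors, within 0.5 of the lowest level of the tumor table.

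The SLC38 members linked to lysosomes, or of less settled role, were detected in both settings. Slc38a9, the lysosomal arginine sensor that acts on mTORC1, had a mean log2 CPM of 3.18 in culture and 4.23 in tumors, 2.07-fold higher and thus just past 2-fold. Slc38a6 had 3.28 and 4.81, 2.90-fold higher in tumors. Slc38a7, which exports glutamine from lysosomes, had 5.72 and 5.25, and Slc38a10 had 7.08 and 7.28. Slc36a1, a proton-coupled carrier that takes small neutral amino acids out of lysosomes, and Slc36a4 were close between tables as well. Slc36a1 had 4.93 in culture and 5.26 in tumors, and Slc36a4 had 4.72 and 5.45.

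The SLC43 family was low in culture throughout and higher in tumors. Slc43a2 encodes LAT4, a carrier of leucine and other large neutral amino acids that needs no heavy chain, and lies on chromosome 11 from 75531694 to 75577575. Its mean log2 CPM was −0.05 in culture and 5.04 in tumors, 34.0-fold higher, from the 15.7th to the 61.2nd percentile of all genes. This was the widest gap among members above the lowest level. The nucleobase carrier Slc43a3 had −0.73 and 3.09, 14.1-fold higher in tumors, and Slc43a1, the LAT3 carrier, −0.93 and 0.65, 3.0-fold higher. The culture levels of Slc43a3 and Slc43a1 were within 0.5 of the lowest, so their folds depend on how counts near 0 were treated. A share of 9.18% of the exon length of Slc43a2 overlaps Gm45606 on the opposite strand.

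Of the SLC6 family, the carriers of taurine and creatine made up nearly all of the signal and were level between tables. Slc6a6 had a mean log2 CPM of 8.40 in culture and 8.51 in tumors, and Slc6a8 had 7.36 and 7.24. The remaining members were near the detection limit. The vesicular neutral amino acid carrier Slc6a17 had −0.47 and 0.36, and the serotonin transporter Slc6a4 had −0.83 and −0.01. Slc6a20b had −0.73 and −0.20. It shares 21.1% of its exon length with Sacm1l on the opposite strand and has a close copy, Slc6a20a, that is not analysed here. Slc7a6os had 4.99 in culture and 4.77 in tumors.

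A few genes made up most of the summed level. On the linear scale, the 32 members added up to 2642 CPM in culture and 2066 CPM in tumors. The 6 most abundant in culture, Slc38a2, Slc3a2, Slc6a6, Slc7a1, Slc1a5 and Slc6a8, held 79.7% of this sum. In tumors the 6 most abundant were Slc38a2, Slc6a6, Slc3a2, Slc38a10, Slc6a8 and Slc1a5, with 68.5%. Per kilobase of exon, the order in culture began with Slc3a2 (7.06), Slc1a5 (6.01), Slc38a2 (5.96), Slc6a6 (5.32) and Slc1a4 (5.08), on the log2 scale of CPM per kilobase. In tumors it began with Slc3a2 (5.81), Slc38a2 (5.52), Slc6a6 (5.43), Slc1a5 (5.07) and Slc7a15 (4.87). Without values of single samples, it cannot be said which neighbors in these orders differ beyond their spread.

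Members were also grouped by their level in culture, beside all genes of the same level. Of the 10 members with a mean log2 CPM above 5 in culture, 8 were lower in tumors, with a median difference of −0.46, while 60.9% of the 6564 genes at such levels were lower, with a median of −0.14. The exceptions were Slc6a6 and Slc38a10. Of the 13 members below 1 in culture, 6 were above 2 in tumors (46.2%), namely Slc7a2, Slc7a7, Slc7a8, Slc38a1, Slc43a2 and Slc43a3. Of all 4363 genes below 1 in culture, 17.3% were. Genes so low in culture may have been kept for their reads in tumors, which can raise both shares.

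Genes that act with these carriers were described from a list of amino acid synthesis and ATF4 response genes. Of its 28 genes 27 were measured. Of these, 18 were more than 2-fold lower in tumors, where 4.16% of all genes were, and 4 were higher, where 17.3% of all genes were, with a median difference of −1.27. The list was abundant in culture, with a median log2 CPM of 7.17, and of all genes above 5 in culture 60.9% were lower in tumors by any amount. The largest gap was that of Cth, which makes cysteine from cystathionine, with a mean log2 CPM of 6.62 in culture and 2.49 in tumors. Enzymes of serine synthesis were lower too, with Phgdh at 8.46 and 5.85 and Psph at 6.96 and 4.67, as did the mitochondrial serine hydroxymethyltransferase Shmt2 at 9.20 and 6.81. Asns, the asparagine synthetase, had 8.78 and 7.05, and Atf4 itself 9.61 and 8.53. The genes that were higher in tumors were Ass1, Arg2, Glul and Nupr1, among them Ass1 of arginine synthesis at 0.61 and 2.67 and the glutamine synthetase Glul at 4.33 and 5.47. Slc3a2 and Slc7a1 lay on the same side as most of this list.

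**Figure D3:**
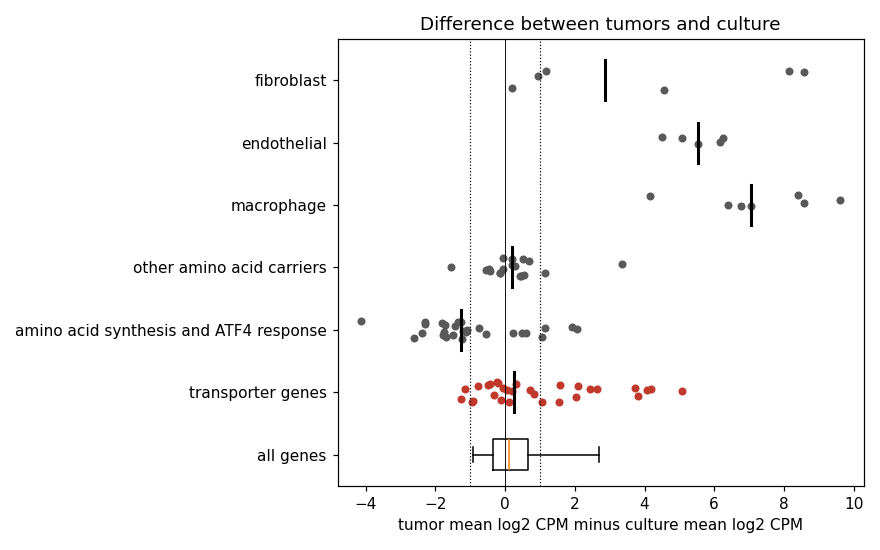
Tumor mean log2 CPM minus culture mean log2 CPM for genes above 0 in at least 1 table. The box spans the quartiles of all genes with whiskers at the 5th and 95th percentiles, dots are single genes, thick bars are medians and dotted lines mark a difference of 1. The transporter genes spread from Slc3a2 at −1.25 to Slc43a2 at 5.09, the synthesis and ATF4 genes have a median of −1.27, and the macrophage and endothelial markers lie far to the right.

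Whole tumors hold host cells that the cultures lack, and markers of these cells differed in the same direction as the scarce carriers. Ptprc, found on all leukocytes, had a mean log2 CPM of −0.73 in culture and 5.70 in tumors. The 8 macrophage markers had a summed level of 2.61 in culture and 9.89 in tumors on the log2 CPM scale. Of the 8, 7 were more than 2-fold higher, where 17.3% of all genes were. The exception was Itgam, below 0 in both tables at −0.39 and −0.20. Csf1r had −0.83 and 6.22, while C1qa, C1qb and Lyz2 were at the lowest level in culture. The 5 endothelial markers had a summed level of 1.53 and 7.26, and all 5 were higher, with Kdr and Tie1 at the lowest level in culture. Of the 6 fibroblast markers 4 were higher. Lum was at the lowest level in culture and at 7.11 in tumors, whereas Col1a2 was abundant in both at 10.31 and 10.51. The 5 measured markers of T and NK cells and the 4 of skeletal muscle were all more than 2-fold higher as well, and reached at most 1.45 and 2.84 in tumors. In culture, all 4 muscle markers and 3 of the T and NK cell markers were at the lowest level, and the others within 0.5 of it. Genes so low in culture may have been kept for their reads in tumors, which can raise these counts of markers. Of 7 melanocyte lineage markers, 2 were in the tables, Mitf at 2.67 in culture and 4.23 in tumors and Pmel at −0.31 and 0.05, so the lineage label rests on few genes here. The part of host cells in the levels of Slc7a2, Slc7a7, Slc7a8, Slc38a1, Slc43a2 and Slc43a3 was not tested, and in whole tumors more cells with a transcript and more transcript per cell cannot be told apart.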

How the data were processed

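Poly(A) RNA of 12 samples (RNeasy extraction, NEBNext Ultra II libraries) was sequenced by the authors. In the notes on processing, the submitters list TopHat2 2.1.1 with Bowtie2 2.3.2, FastQC, and mm10 as the build. For the counting, the annotation and the filter on genes, no source used here gives details. The authors deposited 2 tables, for tumors and for cultured cells, whose used column holds a log2 CPM value per gene, a mean that the file header does not tie to single samples. Their other number columns hold the authors' own fold changes, p-values and adjusted p-values of knockout against control and were not used, so the planned tests of genotype could not be made.

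Levels, percentiles within each table and tumor minus culture differences were computed in Python 3.11.15 with numpy 2.4.6 and pandas 2.3.3. A gene was counted as higher or lower at a log2 difference over 1 with a mean log2 CPM over 0 in at least 1 table. Lengths are merged exons of GENCODE M21 (GRCm38), matched by Ensembl ID. The counting was tested on simulated data. Alternatives were a centred difference, a log2 difference over 2, other level minimums, percentiles and other lengths, and, chosen after seeing the data, leaving out genes at the lowest level. Values in full were planned for the 12 highest members per table, the 6 widest differences each way and heterodimer partners. The promoter sequences printed were chosen after their levels were seen. Members, lists and rules were chosen with earlier results of these data known. Some items are not reported here.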

Additional observations from a re-analysis of the deposited data

How the results depend on the processing

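Of 12 members more than 2-fold higher in tumors (17.3% of all genes), 12 remained with the median difference of genes well detected in both tables subtracted (17.8% of all genes) or with no minimum level (16.6%). A log2 difference over 2 left 9 (7.96% of all genes), a minimum of 2 left 9 (13.98%), and percentiles left 11 (13.3%), without Slc38a9. Leaving out genes at the lowest level, chosen after seeing the data, takes out Slc1a3, Slc38a1 and Slc7a8 and left 9 (14.7%). With a log2 difference over 2, 0 members were lower in tumors (0.524% of all genes), against 2 as reported. A difference of over 10 percentile points gave 2 lower members (12.8% of all genes), but Slc1a4 and Slc38a4 in place of Slc3a2 and Slc7a1. The cause was not tested. Above a mean log2 CPM of 1, 19 members were detected in culture and 26 in tumors. Of the 12 highest members per kilobase, 11 or 12 remained with another length or none. No paired analysis was possible because the tables hold 1 mean per gene, and for the same reason no replicate could be left out. The tables were scaled separately, and what depth limits cannot be stated.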

Other observations

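Carriers outside the families above, among them those of mitochondria, lysosomes and vesicles, were described as a further list. Of its 18 measured genes, 2 were more than 2-fold higher in tumors, where 17.3% of all genes were. More than 2-fold lower was 1 gene, where 4.16% of all genes were. The median difference was 0.20, beside 0.10 for all genes and 0.26 for the members. Whether the list differs from all genes was not tested. The aspartate and glutamate carriers of mitochondria, Slc25a12 and Slc25a13, had a mean log2 CPM of 5.56 and 5.14 in culture and of 5.42 and 5.34 in tumors. The mitochondrial serine carrier Sfxn1 had 6.92 and 6.46, and the lysosomal cystine exporter Ctns 3.75 and 4.44. The gene that was lower was Slc7a11, the cystine and glutamate exchanger and a known target of NRF2 and ATF4, at 6.78 in culture and 5.24 in tumors. Among the genes that were higher was Mfsd12, which takes cysteine into melanosomes and lysosomes, at 2.98 and 4.11. Nfe2l2 had 7.70 in culture and 8.25 in tumors, a mean over knockout and control samples.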
